A study of Mus musculus with 2 samples.

Results

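A small set of stromal cells of the Marfan mouse aorta was chosen by the measured values of 2 acute-phase transcripts, haptoglobin (Hp) and lipocalin-2 (Lcn2). The set holds every cell whose Hp and Lcn2 values sum to at least 10, with Myh11 under 10, the 3 C1q genes under 5 in sum, Pecam1 and Cdh5 under 2 in sum, and Col1a1, Col1a2 and Dcn at 10 or more in sum. These Hp/Lcn2 cells numbered 104 of 7358, 50 of 4397 in the library from mice given GLPG0187 and 54 of 2961 in the library from mice given vehicle. The cells that met every other gate but lay under 10 for Hp plus Lcn2, called other stromal cells, numbered 2104 and 1831.

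Both libraries held cells of the dissected root and ascending part of the aorta of Fbn1C1041G/+ mice, which carry a mutant fibrillin-1 allele and serve as a model of Marfan syndrome. One pool received GLPG0187, an integrin alpha-v inhibitor per the submitters' design text, and the other received vehicle, daily from 6 to 16 weeks of age, with tissue taken at 16 weeks. Each pool mixed male and female mice in equal numbers, how many animals went into a pool is not stated in these sources, and no wild-type group was compared. With 1 library per group no difference between GLPG0187 and vehicle could be tested, and treatment cannot be told apart from which animals were pooled or how each library was made. Gene values are mean deposited values per cell on a depth-corrected scale, log2 ratios were taken after adding 0.1 to each mean, and genes were counted by size only.

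Acute-phase proteins are made mainly by the liver during infection or injury, but fibroblasts and chondrocytes can make several of them when exposed to interleukin-1, interleukin-6, interleukin-17 or tumour necrosis factor. Haptoglobin binds free haemoglobin, lipocalin-2 withholds iron from bacteria by binding their siderophores, and serum amyloid A3 (Saa3) is a local acute-phase apolipoprotein. C/EBP, NF-kappa-B and STAT3 are the factors through which such genes are usually switched on.

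Lcn2, Saa3, Slpi and C3 had higher means in the Hp/Lcn2 cells of both libraries, Lcn2 by the rule itself and Slpi from few cells. The upstream sequences of these 4 genes are shown for that reason. Each is the 250 bases before the RefSeq transcript start, on the GRCm38.p6 build, read 5′ to 3′ on the gene's strand. They lie at chr2:32387740-32387989 for Lcn2, chr7:46715677-46715926 for Saa3, chr2:164356508-164356757 for Slpi and chr17:57228137-57228386 for C3, all on the minus strand, and the Saa3 window lies inside the annotated gene span, since RefSeq also lists a start further upstream. Capitals mark matches on either strand to TTNNGNAA, a C/EBP-type motif, or GGGNNNNTCC, an NF-kappa-B-type motif.
Lcn2: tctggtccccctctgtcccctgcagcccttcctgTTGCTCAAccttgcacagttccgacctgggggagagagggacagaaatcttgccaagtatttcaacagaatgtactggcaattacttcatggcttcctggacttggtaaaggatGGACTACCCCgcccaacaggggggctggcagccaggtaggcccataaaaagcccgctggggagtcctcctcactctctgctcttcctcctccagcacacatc
Saa3: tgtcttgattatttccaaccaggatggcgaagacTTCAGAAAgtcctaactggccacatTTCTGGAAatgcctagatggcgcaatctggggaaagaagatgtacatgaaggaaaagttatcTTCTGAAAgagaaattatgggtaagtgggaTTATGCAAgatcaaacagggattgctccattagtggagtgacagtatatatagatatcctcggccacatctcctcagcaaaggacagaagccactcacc
Slpi: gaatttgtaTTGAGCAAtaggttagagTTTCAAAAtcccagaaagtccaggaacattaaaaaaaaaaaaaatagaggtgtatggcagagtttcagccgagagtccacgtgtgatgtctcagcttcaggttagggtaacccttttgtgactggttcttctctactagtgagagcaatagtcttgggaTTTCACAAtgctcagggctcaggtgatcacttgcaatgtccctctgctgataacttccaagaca
C3: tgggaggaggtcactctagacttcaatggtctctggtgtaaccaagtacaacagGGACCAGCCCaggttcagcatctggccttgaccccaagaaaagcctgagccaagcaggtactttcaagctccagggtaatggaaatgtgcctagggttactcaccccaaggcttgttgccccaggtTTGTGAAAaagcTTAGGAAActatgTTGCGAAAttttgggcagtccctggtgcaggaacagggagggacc
Lcn2 and C3 each held 1 NF-kappa-B-type match, the one in Lcn2 from 102 to 93 bases before the start and the one in C3 from 196 to 187 bases before it. The C/EBP-type motif matched 1 time in Lcn2, 4 times in Saa3, 3 times in Slpi and 3 times in C3. Among 32851 RefSeq windows of the same length, 36.8% held the C/EBP-type motif and 16.5% the NF-kappa-B-type motif, so a match is common and marks no site of binding.

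The values that chose the cells are given first, as a description. Hp lies on chromosome 8 (109575128 to 109579172) and Lcn2 on chromosome 2 (32384637 to 32387739) of GRCm38.p6. Lcn2 brought in most of them: 29 GLPG0187 cells and 29 vehicle cells had Lcn2 at 10 or more with Hp under 10. Hp alone reached 10 in 9 and 1 cells, both genes did so in 10 and 24, and 2 GLPG0187 cells passed only by their sum. Lcn2 ran from 0 through a median of 30.5 to 300 in GLPG0187 cells and from 0 through 58.0 to 802 in vehicle cells. Hp ran from 0 through 2.0 to 65 and from 0 through 6.5 to 466, and was above 0 in 28 of 50 and 34 of 54 cells. The 2 ranges overlapped for both genes, and the 11 vehicle cells with Hp at 100 or more had no counterpart in the GLPG0187 library.

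**Figure D1:**
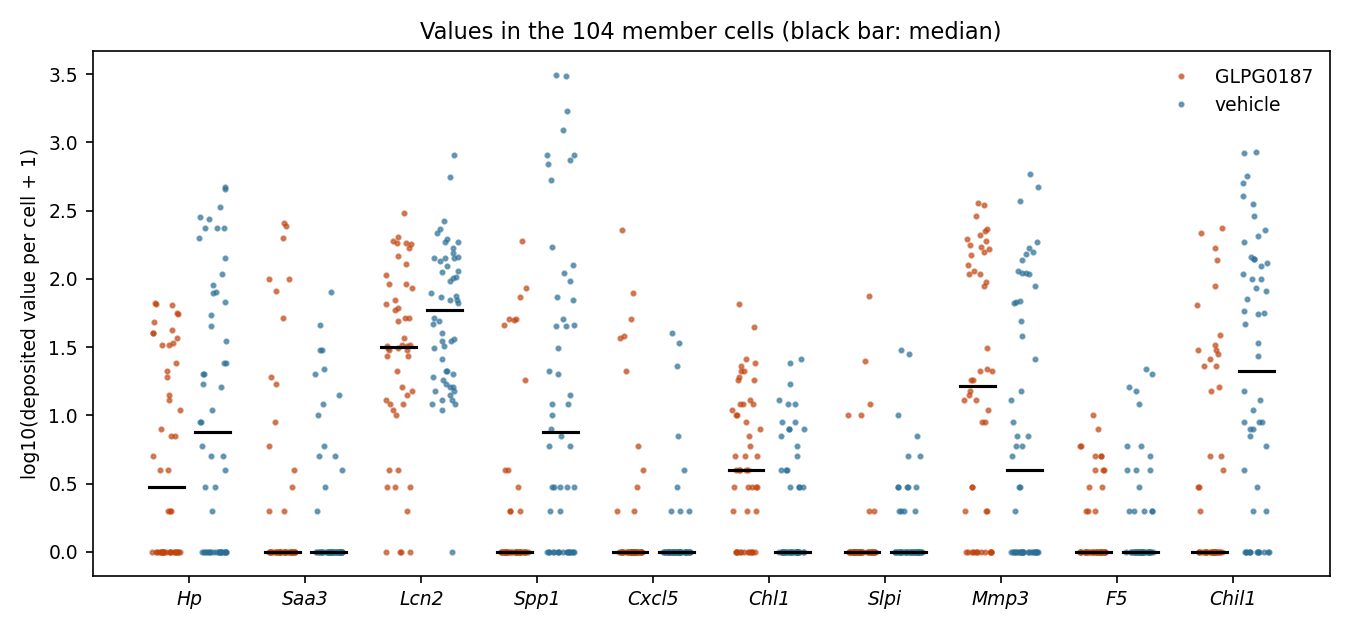
Each point is 1 Hp/Lcn2 cell; the y axis is log10 of the deposited value plus 1, black bars are medians, and colours mark the GLPG0187 (50 cells) and vehicle (54 cells) libraries. Lcn2 is above 0 in 46 of 50 and 53 of 54 cells, while Saa3, Cxcl5, Slpi and F5 have a median of 0 in both libraries. Saa3, Cxcl5 and Slpi reach high values in a few cells, and F5 goes no higher than 9 and 21.

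Outside the set these transcripts were rare, apart from endothelial cells and, in the GLPG0187 library, cells low in collagen transcripts. Lcn2 was above 0 in 8.51% of GLPG0187 and 8.47% of vehicle other stromal cells, and Hp in 3.28% and 2.68%. Cells of the macrophage gate, which serve as a guide to free RNA, held Lcn2 in 5.12% and 4.76% and Hp in 2.39% and 2.38%, at a median of 3179 and 3056 genes detected per cell against 3576.5 and 3700 in other stromal cells. In the Pecam1 or Cdh5 gate of endothelial cells, 24 of 227 and 16 of 152 cells reached a sum of 10, that is 10.6% and 10.5%. Lcn2 supplied it, with a mean of 2.86 and 2.93 there against 0.0132 and 0.0395 for Hp. The smooth muscle gate, Myh11 at 10 or more, held 1 and 0 cells with a sum of at least 10. Cells that failed only the collagen and Dcn gate held 6 of 63 such cells after GLPG0187 (9.52%) and 0 of 30 after vehicle.

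Of the gated stromal cells, Hp/Lcn2 cells made up 2.32% after GLPG0187 (exact Clopper-Pearson 95% interval 1.73 to 3.05) and 2.86% after vehicle (2.16 to 3.72). The difference of -0.543 percentage points has an interval of -1.59 to 0.470, which covers counting error only. Of all cells they were 1.14% (0.845 to 1.5) and 1.82% (1.37 to 2.37), a difference of -0.687 points (-1.31 to -0.110), in libraries where the smooth muscle gate held 1660 and 726 cells. The doublet caller marked 0 of the 104, and none had a barcode found in the other library, where 5 barcodes were shared in all. Hp/Lcn2 cells had a median of 4201.5 and 3699.0 genes detected, against 3576.5 and 3700.0 in other stromal cells, so the GLPG0187 set was the richer in detected genes.

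The label acute-phase stromal is set beside the marker lists here, as a description. Col1a2 and Dcn were above 0 in all 50 and all 54 cells, with Dcn at a mean of 356 and 298, but collagen and Dcn were part of the gate. The set's own markers were chosen with earlier results of these data known, so their excess does not test the label. They were spread unevenly over the cells. Of the 7 markers that the rule did not use (Saa3, Spp1, Cxcl5, Chl1, Slpi, Mmp3 and F5), an Hp/Lcn2 cell carried a median of 3.0 and 2.0, and 26 (52.0%) and 25 (46.3%) cells carried at least 3, while 5 and 9 carried none. Other stromal cells with at least 3 were 1.05% and 0.109%. Of these 7 markers, only Saa3 and Slpi are on the list of acute-phase and antimicrobial genes. In the 11 GLPG0187 and 12 vehicle cells just inside the threshold, with a sum of 10 to 19, Saa3, Cxcl5 and Slpi were listed at 0. The same GLPG0187 cells already held Mmp3 at 40, Chl1 at 2.91 and C3 at 46.6, and the vehicle ones held 1.08, 0.583 and 6.92. In the 23 and 15 cells just outside it, with a sum of 5 to 9, Mmp3 averaged 7.87 and 1.53, Chl1 0.870 and 0.2, C3 28.3 and 6.60, and Saa3 0.0435 and 0. In the 11 and 29 cells at 100 or more, Saa3 averaged 67.9 and 9.28.

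Marker lists of non-stromal cell types were mostly low or absent, and several stromal ones were not. All 4 epithelial markers in the files were at 0 in every Hp/Lcn2 cell. So were 8 of 10 neutrophil markers, among them S100a8, S100a9 and Ly6g. The same held for 11 of 15 mesothelial markers (among them Wt1, Krt19 and Upk1b) and 6 of 11 adipocyte markers (among them Adipoq and Plin1). Rspo1, the only mesothelial marker measured, went the other way and was at least 2-fold higher than in other stromal cells in both libraries. The mesothelial list summed to 0 to 5 per GLPG0187 cell and 0 to 3 per vehicle cell. Fabp4, the only adipocyte marker measured, was lower than in other stromal cells after GLPG0187 and at least 2-fold higher after vehicle. The 10 macrophage markers summed to 0 to 3 per GLPG0187 cell and 0 to 2 per vehicle cell, and the 8 endothelial markers to 0 to 1 in both, the C1q genes, Pecam1 and Cdh5 being limited by the gate. Smooth muscle markers summed to a median of 6.0 and 4.5, against 17.0 and 15 in other stromal cells. Neutrophils and epithelia are well-known sources of Lcn2 and Slpi. Stromal lists differed more. Of 10 modulated smooth muscle genes, 7 were at least 2-fold higher in both libraries, beside 2.66% of all genes measured. Median sums of this list were 514.5 and 567.5 against 304.0 and 285.0. The list holds Timp1, the marker Spp1, and Dcn, which is a gate gene for both groups compared. Synovial lining genes, among them Prg4, had 2 of 4 measured genes higher and median sums of 60.5 and 165.5 against 13 and 11. Chondrocyte-like markers had a median sum of 9.0 in GLPG0187 cells against 7.0, and of 59.0 in vehicle cells against 6.0.

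The next comparison asks which genes set these cells apart from the other stromal cells of the same library. Of 4970 genes with a mean of at least 0.5 in 1 of the 4 groups, 132 (2.66%) were at least 2-fold higher in Hp/Lcn2 cells in both libraries and 100 (2.01%) at least 2-fold lower. Taken singly, the GLPG0187 library had 232 (4.67%) higher and 180 (3.62%) lower genes, and the vehicle library 243 (4.89%) and 345 (6.94%). The median gene stood at a log2 ratio of 0.03 after GLPG0187 and -0.26 after vehicle. Because the cells were chosen within these same data, the ratios describe the set and test nothing. The 132 higher genes include the rule genes Hp and Lcn2 and the 7 other markers. Counts for single lists of this comparison are to be read beside the 2.66% and 2.01% of all genes measured. Several lists hold markers of the set, among them Saa3, Slpi, Cxcl5 and Mmp3.

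Outside the markers the highest ratios in both libraries belonged to Chil1, a secreted chitinase-like glycoprotein known from inflamed cartilage. It ran from 0 through 0.0 to 233 in GLPG0187 cells and from 0 through 20 to 851 in vehicle cells, with means of 23.4 and 111 against 0.440 and 0.354 in other stromal cells. The log2 ratios were 5.45 and 7.94, and 22 of 50 and 41 of 54 cells held it, against 2.39% and 3.57% of macrophage-gate cells.

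Among the acute-phase and antimicrobial genes, 9 of 12 measured genes were at least 2-fold higher in both libraries, with list medians of 2.42 and 3.04, and none was lower in both. Saa3 averaged 21.6 and 5.07 against 0.0223 and 0.0169 (log2 ratios 7.47 and 5.47), from 15 cells in each library, with single cells up to 257 and 79. In the GLPG0187 library 5 cells supplied 82.8% of the Saa3 sum, and in the vehicle library 5 cells supplied 74.1%. Serpina3n, a secreted inhibitor of serine proteases, was instead broad: it was above 0 in 50 of 50 and 53 of 54 cells, with medians of 37.5 and 25 and log2 ratios of 3.17 and 2.94. Complement C3 had a similar spread, above 0 in 49 and 47 cells, with medians of 41.0 and 31.5, means of 52.1 and 42.7 against 7.13 and 3.80, and ratios of 2.85 and 3.45. Lipopolysaccharide-binding protein (Lbp) stood at 5.20 and 3.07 (ratios 3.18 and 2.83). Slpi, the secretory leukocyte protease inhibitor whose upstream sequence is printed above, was above 0 in 7 and 15 cells only, with means of 2.58 and 1.72 and ratios of 4.61 and 3.95. A single GLPG0187 cell reached 74. The metal-binding metallothioneins Mt1 and Mt2, which most stromal cells also expressed, had ratios of 1.16 and 2.78 and of 1.94 and 3.14.

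So the programme had a broad layer and a patchy one. Serpina3n, C3 and Timp1 were found in nearly all Hp/Lcn2 cells, whereas Saa3, Cxcl5, Slpi and F5 came from 7 to 17 cells in each library. The broad genes were common among other stromal cells too, with Timp1 above 0 in 79.6% and 78.6% of them, Serpina3n in 59.7% and 53.5% and C3 in 46.2% and 33.5%.

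Of 9 measured complement genes, 5 were at least 2-fold higher in both libraries, namely C1ra, C1s1, C3, C4b and Cfb, with list medians of 1.31 and 1.12. Factor B (Cfb), the protease subunit of the alternative pathway, averaged 2.12 and 2.20 against 0.180 and 0.0885. C4b, of the classical pathway, averaged 20 and 8.91 against 5.35 and 3.90.

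Of 13 chemokine genes, 8 were at least 2-fold higher in both libraries, the marker Cxcl5 among them, beside 2.66% of all genes measured. Cxcl5, a chemokine that attracts neutrophils, averaged 9.20 and 2.00 against 0.0475 and 0.0229, from 11 and 9 cells, and 5 cells supplied 93.0% and 95.4% of it. Cxcl14 averaged 4.24 and 3.91, from 21 and 22 cells, against 0.285 and 0.0726. The monocyte chemokine Ccl7 averaged 7.60 and 3.44 (ratios 3.64 and 4.25), from 15 and 8 cells. Ccl7 is a gene that free RNA could bring, since 79.9% and 54.8% of macrophage-gate cells held it at means of 33.7 and 16.4. Cxcl2 was higher still in that gate, at 131 and 160, and averaged 6.44 and 1.89 in Hp/Lcn2 cells, from 10 and 7 cells. The part of free RNA in the Ccl7 and Cxcl2 values was not tested. For Cxcl5, Cxcl14, Lcn2 and Hp the macrophage gate had means of 0.0956 or less.

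Genes that would send or receive an inflammatory signal had lower list medians than the acute-phase genes. None of 4 measured cytokine genes, 2 of 9 receptor genes (Il13ra1 and Tlr2) and 4 of 15 NF-kappa-B feedback genes and targets (Bcl3, Vcam1, Sod2 and Ptges) were at least 2-fold higher in both libraries, beside 2.66% of all genes measured. Their list medians were -0.14 and 0.24 for cytokines, 0.61 and 0.52 for receptors and 0.5 and 0.86 for the NF-kappa-B list. Superoxide dismutase 2 (Sod2), an NF-kappa-B target, had ratios of 2.09 and 2.04 and was above 0 in 44 and 47 cells. Nfkbia, the inhibitor that NF-kappa-B itself induces, had ratios of -0.41 and 0.16. None of 9 C/EBP and STAT3 genes and targets reached 2-fold in both libraries: Cebpb stood at 6.70 and 7.13 against 5.89 and 6.37, Cebpd at 10.3 and 16.9 against 8.94 and 10.3, and Stat3 at ratios of -0.07 and -0.15. Il6 itself had ratios of -0.81 and 0.19.

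Interferon-response and class I antigen-presentation genes were also high, and class II genes were not. Of 14 interferon genes, 8 were at least 2-fold higher in both libraries (medians 1.31 and 1.11), led by the GTPase Iigp1, at 7.98 and 3.61 against 2.35 and 0.579. Of 8 class I genes, 4 were so too, with H2-K1 at 22.2 and 21.4 against 8.47 and 4.05. H2-K1 was above 0 in 93.2% and 88.9% of other stromal cells, so the set differed in its level and not in its presence. None of 5 measured class II genes was at least 2-fold higher in both libraries, with list medians of -0.71 and 0.89. H2-Q7 had ratios of 2.94 and 4.47, and 88.1% and 57.1% of macrophage-gate cells held it as well.

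Of 11 matrix protease genes, Mmp3 alone was at least 2-fold higher in both libraries. Stromelysin-1 (Mmp3), which cleaves proteoglycans and activates other metalloproteinases, ran from 0 through 15.5 to 360 in GLPG0187 cells and from 0 through 3.0 to 580 in vehicle cells. Its means were 74.0 and 57.8 against 5.86 and 4.97, with ratios of 3.64 and 3.51, and 37 and 30 cells held it. Its inhibitor Timp1 was in every one of the 104 cells, at a lowest value of 2 in each library and medians of 20 and 27, with means of 35.4 and 47.5 against 4.40 and 3.74. Coagulation factor V (F5) averaged 1.08 and 2.04 against 0.0261 and 0.00382, from 15 and 17 cells, while tissue factor (F3), the starter of the extrinsic pathway, was lower, at 0.180 and 0.463 against 1.94 and 1.64.

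Of 9 measured neural adhesion and guidance genes, Chl1 and Nfasc were at least 2-fold higher and Sema3d at least 2-fold lower in both libraries, with list medians of -0.12 and 0.06. The L1-family protein Chl1 averaged 8.16 and 3.09 against 0.142 and 0.0950 (ratios 5.10 and 4.03), from 37 and 21 cells. Neurofascin (Nfasc), of the same family, averaged 1.72 and 1.39 against 0.107 and 0.0890, from 41 and 33 cells. Each was above 0 in 0.341% and 0% of macrophage-gate cells.

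Osteopontin (Spp1), a matrix protein that binds alpha-v integrins and CD44, set the vehicle cells apart more than the GLPG0187 cells. It averaged 253 in vehicle Hp/Lcn2 cells against 3.41 in other stromal cells (ratio 6.17) and 11.3 against 2.84 in the GLPG0187 library (1.96). Its receptors showed no such excess: Itgav, the target of GLPG0187, had ratios of -0.27 and -0.53, and Cd44 of 0.68 and 0.19. Of the other integrin genes, Itgb8 had ratios of 1.36 and 1.08 while Itga8 had -1.74 and -2.65.

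Among the lowest genes, insulin-like growth factor binding protein 5 (Igfbp5) averaged 0.920 and 1.70 against 9.70 and 10.6 (ratios -3.26 and -2.57). Glypican-3 (Gpc3) had ratios of -2.39 and -2.55, the laminin chain gene Lamc3 of -2.33 and -2.51, and Col4a4 of -2.07 and -2.91. Igfbp3 was at 0.5 in GLPG0187 cells and listed at 0 in all vehicle cells, against 2.20 and 2.58. Of 8 smooth muscle genes, 5 were at least 2-fold lower in both libraries, Lmod1 at ratios of -2.27 and -2.81 and Tagln at -1.71 and -2.18. Tagln is also above 0 in 90.8% and 81.5% of macrophage-gate cells, and the part of free RNA in its level was not tested. Of 17 immediate early genes, which many stimuli induce within minutes, 2 were at least 2-fold lower in both libraries, Egr1 (-1.32 and -1.09) and Nr4a1 (-1.58 and -1.41). The list medians were -1.08 and -0.63, and median sums were 39.0 against 142.5 and 56.0 against 103.0.

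**Figure D2:**
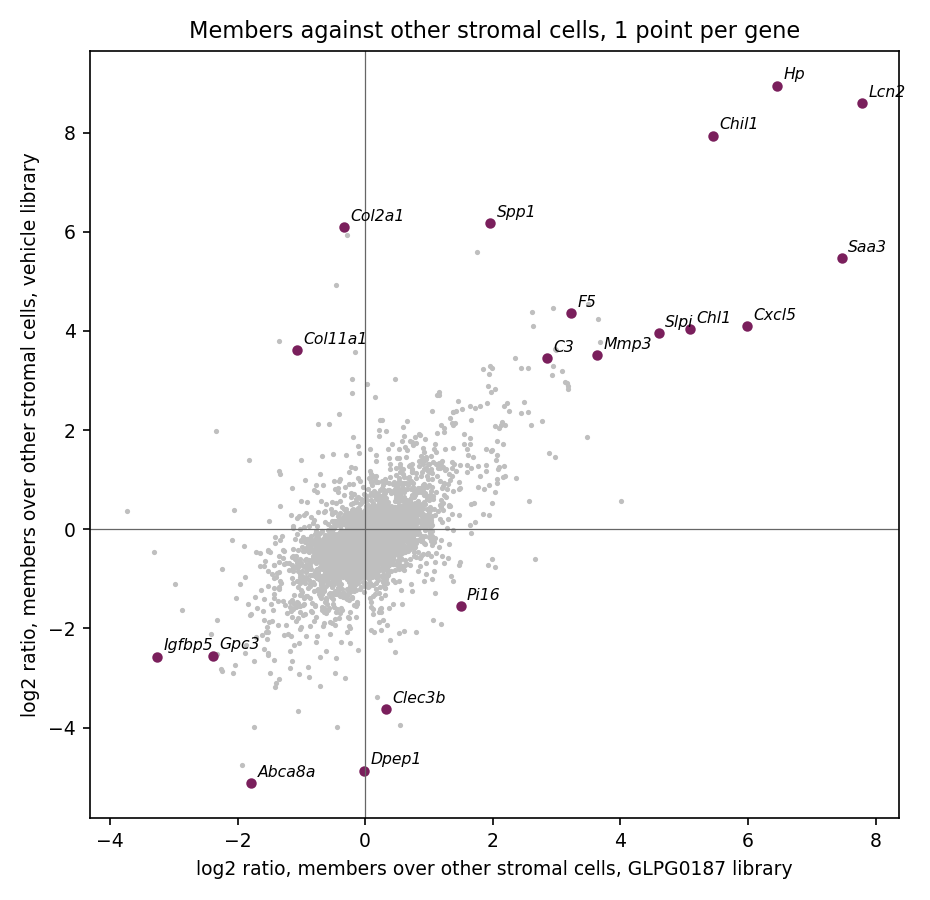
Each point is 1 of 4970 genes; the axes are log2 ratios of the mean deposited value plus 0.1, Hp/Lcn2 cells over other stromal cells, in the GLPG0187 library (x) and the vehicle library (y). Hp, Lcn2, Chil1, Saa3 and Cxcl5 lie high on both axes, Spp1, Col2a1 and Col11a1 high on the vehicle axis, and Dpep1, Clec3b and Abca8a low on it.

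Sex-linked transcripts were used to ask whether the set drew on the male and female mice of each pool alike. The rule did not use these genes. A cell was called Y-only when it held any of Ddx3y, Eif2s3y, Kdm5d and Uty but not Xist, and Xist-only in the opposite case. Among Hp/Lcn2 cells 44 were Y-only and 1 was Xist-only in the GLPG0187 library, and the vehicle library gave 36 and 3. Y-only cells were 97.8% (88.2 to 99.9) and 92.3% (79.1 to 98.4) of those with a call. Other stromal cells stood at 69.0% (66.8 to 71.1) and 60.9% (58.5 to 63.3), below both intervals of the Hp/Lcn2 cells. Counted the other way, 3.38% and 3.52% of Y-only stromal cells were Hp/Lcn2 cells, against 0.177% (0.00447 to 0.980) and 0.470% (0.0971 to 1.37) of Xist-only stromal cells. Within cluster 3, described next, all 12 called GLPG0187 cells and all 28 called vehicle cells were Y-only, where other cells of the cluster were 116 Y-only to 29 Xist-only and 98 to 44.

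The macrophage gate also leaned to Y-only cells, at 84.6% and 73.9%, and the smooth muscle gate stood at 69.2% and 65.6%. Cells of 1 mouse are not independent, and these intervals treat them as if they were. Whether the Hp/Lcn2 cells came from male mice in general or from 1 or a few male mice cannot be told apart, since cells carry no label of their animal.

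**Figure D3:**
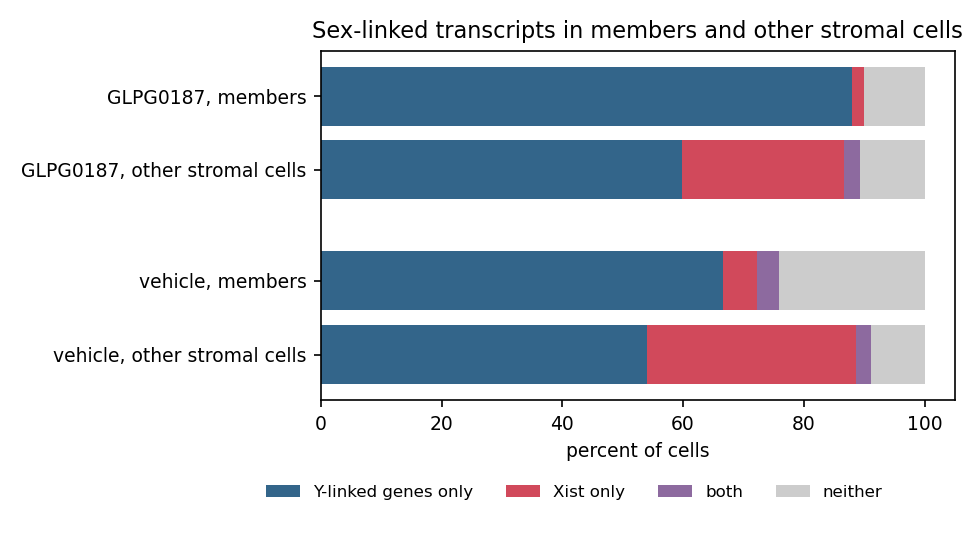
Bars give the percent of cells with transcripts of Y-linked genes only, Xist only, both or neither, for Hp/Lcn2 cells (members) and other stromal cells of each library. Xist-only cells are 1 of 50 and 3 of 54 Hp/Lcn2 cells, against 565 of 2104 and 635 of 1831 other stromal cells.

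The stromal cells of both libraries were clustered together without the 11 rule genes and the 9 markers, to see beside which stromal cells the set lay. Clusters are named by number and leading genes. Cluster 3, led by Comp, Cytl1 and Chad (Comp and Chad code for matrix proteins of cartilage), held 14 GLPG0187 Hp/Lcn2 cells (28.0%, 16.2 to 42.5) and 39 vehicle ones (72.2%, 58.4 to 83.5), although it held only 7.94% and 9.18% of other stromal cells. Cluster 2, led by Ly6a, Clec3b, C3 and Pi16 (Pi16 and Clec3b are known from adventitial fibroblasts), held 16 GLPG0187 cells (32.0%, 19.5 to 46.7) and 0 of 54 vehicle cells, which allows a share of up to 5.56% by a count of 3 cells and 6.60% by the exact interval. It was present in both libraries, with 12.1% and 10.5% of other stromal cells. Cluster 0, led by Tbx20, Prg4 and Thbs1, held 15 and 6 cells, cluster 5, led by Vcan, Clu and Postn, 4 and 9, and cluster 1 held 1 and 0. Clusters 4, 6, 7 and 8 held none, cluster 4 among 342 and 379 other stromal cells.

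With the markers left in the clustering, the cluster led by Comp and Chad held 28 and 41 of the cells and the one led by Clec3b and Pi16 again 16 and 0. The division of the GLPG0187 cells among clusters thus depends on the genes used, while vehicle cells were missing from the cluster led by Clec3b and Pi16 in both clusterings.

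**Figure D4:**
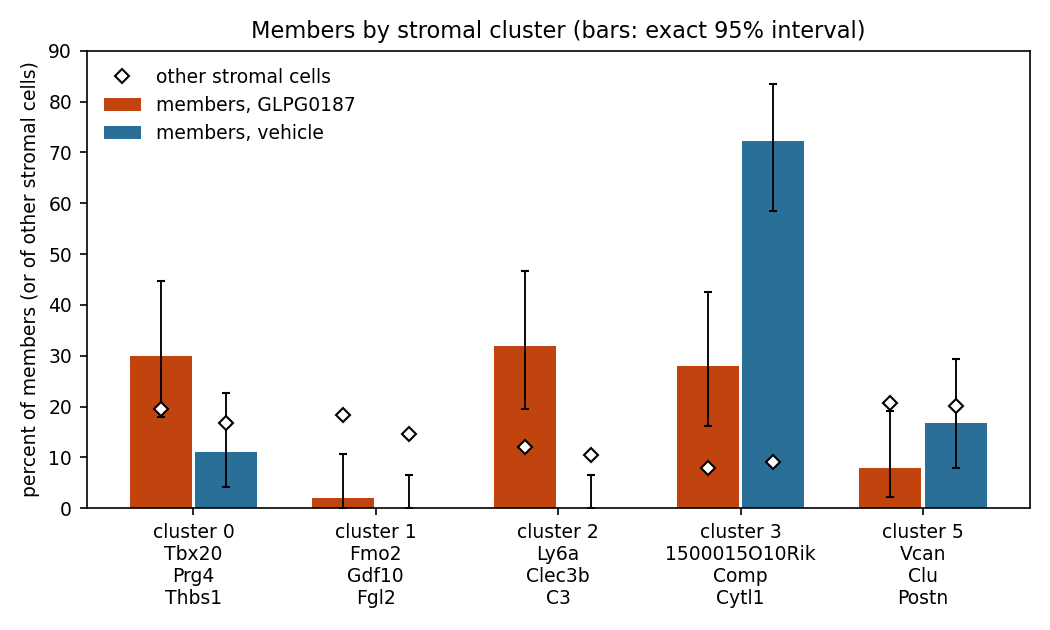
Bars give the percent of Hp/Lcn2 cells (members) of each library in each stromal cluster that holds any, with exact Clopper-Pearson 95% intervals for counting error; diamonds give the percent of other stromal cells. The vehicle bar is highest at cluster 3 (72.2%), and the GLPG0187 cells divide among clusters 0, 2 and 3 at 30%, 32.0% and 28.0%.

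The acute-phase genes were not shared out evenly among these clusters. In cluster 2, Hp at 10 or more with Lcn2 under 10 brought in 9 of the 16 GLPG0187 cells, Lcn2 with Hp under 10 brought in 6, and 1 passed only by the sum. The 9 were all the cells of that library that entered by Hp alone. Hp averaged 17.2 there and was above 0 in 14 cells, while Lcn2 averaged 9.19, Saa3 3.56, Chil1 0.125, and Spp1 and Slpi were listed at 0. Against the other cells of cluster 2 they held Clec3b at 20.9 and 17.4, Tnxb at 7.38 and 6.96, Dpep1 at 11.1 and 7.57, and Pi16 at 37.2 and 18.0. In cluster 0 the 15 GLPG0187 cells were Lcn2 cells almost without Hp, which was above 0 in 1 of them at a value of 1. Lcn2 averaged 66.3 there, Saa3 31.8 from 5 cells, Mmp3 98.5 from 14 cells and F5 2.07 from 8 cells, while Cxcl5 averaged 0.133. In cluster 3 both rule genes were high, Hp at 32.1 and 91.1 and Lcn2 at 116 and 125, together with Chil1 at 68.1 and 151. The 9 vehicle cells of cluster 5 had Lcn2 at 40.2 with Hp, Saa3, Cxcl5 and Slpi listed at 0.

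Within cluster 3 the Hp/Lcn2 cells also held genes that their neighbours almost lacked. C3 averaged 63.1 and 55.5 against 1.71 and 0.714, Serpina3n 49.4 and 33.1 against 1.46 and 0.714, and Mmp3 113 and 75.8 against 1.44 and 0.530. C3 was above 0 in all 14 and all 39 of them. The leading genes Comp, Cytl1 and Chad were lower than in the neighbours. Comp stood at 38.1 against 91.5 and 80.9 against 109, Cytl1 at 14.2 against 89.8 and 42.2 against 85.2, and Chad at 8.36 against 34.1 and 30.6 against 54.7. Fn1, also a leading gene of the cluster, was higher, at 36.0 against 19.5 and 64.0 against 20.3. Spp1 turned direction here in the GLPG0187 library: it averaged 26.8 against 31.9 in the neighbours (ratio -0.25), whereas vehicle cells had 350 against 29.1 (3.58). The GLPG0187 excess of Spp1 over all other stromal cells therefore did not hold within cluster 3. It did hold within cluster 0, at 12.5 against 0.278 (ratio 5.06), from 7 of 15 cells. In clusters 2 and 5 Spp1 was listed at 0 in the GLPG0187 Hp/Lcn2 cells.

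The last comparison sets the Hp/Lcn2 cells of GLPG0187 mice beside those of vehicle mice. Of 4669 genes measured in them, 299 (6.40%) were at least 2-fold higher in the GLPG0187 cells and 119 (2.55%) at least 2-fold lower, so 71.5% of the genes counted were higher. In other stromal cells the same genes gave 13 (0.278%) and 0 (0%), over 2104 and 1831 cells rather than 50 and 54. The median gene lay 0.27 above 0 in Hp/Lcn2 cells and at -0.02 in other stromal cells, beside the higher number of detected genes in the GLPG0187 cells. Centred on that median gene, 166 were higher and 191 lower, so 46.5% of those counted were higher. The side with more genes thus depends on the centring, and single ratios below are to be read against 0.27. Counts for single lists below are to be read beside the 6.40% and 2.55%, and the 119 lower genes include the rule gene Hp.

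Cartilage and bone matrix genes were the clearest group on the vehicle side. Of 9 osteochondrogenic genes, 7 were at least 2-fold lower in GLPG0187 Hp/Lcn2 cells (list median -2.42, against -0.26 in other stromal cells). So were 8 of 10 chondrocyte-like markers (-2.59, against 0.01), beside 2.55% of all genes measured. The 2 counts overlap, since Acan, Col2a1, Comp and Chad are in both, and the first includes the marker Spp1. Col2a1, the collagen of cartilage, averaged 0.0400 in GLPG0187 cells, from 2 of 50, and 9.56 in vehicle cells, from 12 of 54, of which 5 supplied 91.1%. Col11a1 stood at 0.0400 and 3.57 (log2 ratio -4.71), with 2 and 26 cells above 0. Aggrecan (Acan) stood at 0.12 and 1.87 (-3.16), from 5 and 22 cells, and chondroadherin (Chad) at 4.12 and 22.5 (-2.42), from 7 and 20. Mmp13, the collagenase of hypertrophic cartilage, was listed at 0 in every GLPG0187 cell and averaged 6.07 in vehicle cells, from 10 of 54. Ibsp was likewise listed at 0 in GLPG0187 cells and at 0.907 in vehicle cells. The groups overlapped for every one of these genes, since most vehicle cells were at 0 for them too.

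Spp1 ran from 0 through 0.0 to 188 in the 50 GLPG0187 cells and from 0 through 6.5 to 3132 in the 54 vehicle cells. The means were 11.3 and 253 (log2 ratio -4.47), with 14 and 37 cells above 0, and 5 vehicle cells supplied 72.6% of the vehicle sum. Without the highest cell of each library the ratio was -4.67, and among Y-only cells -4.39. Chil1 (-2.24) and Hp (-2.17) were lower in GLPG0187 cells in the same way, and Lcn2 was closer, at 58.1 and 98.9 (-0.77), with Hp and Lcn2 being rule genes. Prg4, the lubricant protein of joints, averaged 75.9 and 176. Mt1 averaged 48.8 and 167 and Mt2 20.7 and 49.2. With Fkbp5 and Tsc22d3 they made 4 of 8 measured glucocorticoid-response genes that were at least 2-fold lower. Of 5 class II genes, 4 were at least 2-fold lower too, Cd74 at 1.5 and 5.96. Both counts stand beside 2.55% of all genes measured. Cd74 was held by 99.3% and 90.5% of macrophage-gate cells.

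Bpifb1, a secreted protein of the lipid-binding BPI family, was listed at 0 in all GLPG0187 cells and averaged 4.19 in vehicle cells, from 14 of 54 with a highest value of 103. Myocilin (Myoc) stood at 0.480 and 8.80 (-3.94) and osteomodulin (Omd) at 0.260 and 3.63 (-3.37).

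On the GLPG0187 side stood Saa3, Cxcl5, Chl1 and part of the Pi16 adventitial fibroblast list. Of its 8 measured genes, 4 were at least 2-fold higher in GLPG0187 cells (Pi16, Clec3b, Cd34 and Ly6c1) and 1, Fn1, was lower. Of all genes measured, 6.40% were higher and 2.55% lower. The list median was 0.93, against 0.19 in other stromal cells. Saa3 averaged 21.6 and 5.07 (2.07), Cxcl5 9.20 and 2.00 (2.15) and Chl1 8.16 and 3.09 (1.37). The number of cells above 0 was 15 and 15 for Saa3 and 11 and 9 for Cxcl5, so these 2 differed in level among few cells. Chl1 was above 0 in 37 of 50 and 21 of 54 cells. The peptidase Dpep1 averaged 3.76 and 0.0185 (5.03), from 21 cells and 1 cell, Clec3b 7.64 and 0.278 (4.36), from 25 and 4, and Pi16 12.4 and 1.19 (3.28), from 20 and 15. Tenascin-X (Tnxb) averaged 2.48, from 18 GLPG0187 cells, and was listed at 0 in all vehicle cells. In other stromal cells the ratios of Dpep1, Clec3b, Pi16 and Tnxb were 0.17, 0.41, 0.24 and 0.21. Clec3b, Pi16 and Tnxb are leading genes of cluster 2, which held 16 of the 50 GLPG0187 cells and no vehicle cell. Dpep1 is not a leading gene of cluster 2: other stromal cells of cluster 1 held it at 6.69 and 5.79, near the 7.57 and 5.90 of cluster 2. Among GLPG0187 Hp/Lcn2 cells, however, 14 of the 21 cells with Dpep1 lay in cluster 2, where it averaged 11.1.

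Pentraxin-3 (Ptx3), a soluble pattern receptor, averaged 4.76 and 0.630 (2.74), and the hyaluronan-linking Tnfaip6 3.02 and 0.352 (2.79). Interleukin-33 (Il33), an alarmin of stromal cells, averaged 5.34 and 1.26 (2.00). Of 14 interferon genes, 7 were at least 2-fold higher in GLPG0187 Hp/Lcn2 cells, beside 6.40% of all genes measured. The list median was 0.98, but the same list stood at 0.58 in other stromal cells. Iigp1 and Igtp were as high there, at 1.85 and 1.28 against 1.12 and 1.20 in Hp/Lcn2 cells. Ccl7 likewise had a ratio of 1.12 in Hp/Lcn2 cells and 1.73 in other stromal cells.

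**Figure D5:**
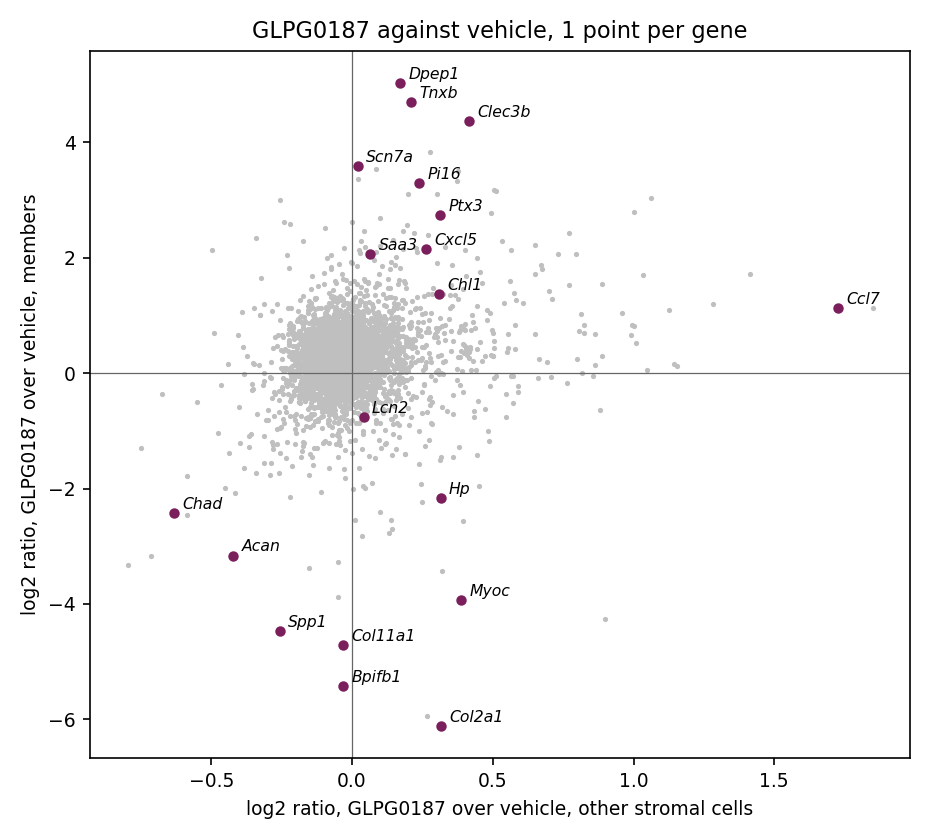
Each point is 1 of 4669 genes; the axes are log2 ratios of mean deposited value plus 0.1, GLPG0187 over vehicle, in other stromal cells (x, a narrower range) and in Hp/Lcn2 cells (members, y). Col2a1, Bpifb1, Col11a1 and Spp1 lie low and Dpep1, Tnxb and Clec3b high on the y axis with x values between -0.26 and 0.41; Tnxb and Bpifb1 are listed at 0 in 1 library, so their height depends on the added 0.1.

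Values within cluster 3 are set beside these differences. Among its 14 GLPG0187 and 39 vehicle cells, Spp1 averaged 26.8 and 350, Hp 32.1 and 91.1, Col2a1 0.0714 and 13.2, Col11a1 0.0714 and 4.95, and Mmp13 was listed at 0 and at 8.41. Saa3 averaged 38.9 and 7.03, from 6 and 15 cells, with single cells up to 241 and 79. Cxcl5 averaged 25.6 and 2.77, from 7 and 9 cells, with single cells up to 227 and 39. Those differences in mean were thus present within the cluster. Pi16 averaged 0.429 and 0.590 there and Tnxb was listed at 0 in both, so the difference in these 2 genes was not seen within the cluster. Both genes lead cluster 2 and were not left out of the clustering, so cells high in them could be placed there. Their values in cluster 3 therefore cannot show whether the difference goes with where the cells lay. Clec3b (1.86 and 0.128), Dpep1 (0.5 and 0.0256), Efemp1 (1.43 and 0.103), Slfn5 (2.21 and 0.103) and Ms4a4d (1.5 and 0.0769) were higher in its GLPG0187 cells, at levels below those of the cluster 2 cells. In the other cells of cluster 3, Spp1 stood at 31.9 and 29.1 and Chad at 34.1 and 54.7. The neighbours of the set thus held Spp1 at nearly the same level in both libraries.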

How the data were processed

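The 2 libraries were made with 10x Genomics 3' version 3 chemistry, per the labels' protocols. The deposited values are whole numbers treated as a score on a depth-corrected scale, not UMI counts, since totals per cell ran only from 12078 to 16719, so raw depth is unknown and no thinning or count model was used. Per the submitters' processing notes, Cell Ranger, Seurat and the mm10 build were used, in roles not given there. The authors' depth adjustment and cell filters are not stated in these sources. The gene set and lists were chosen with earlier results of these data known.

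Groups followed the treatment labels, with 1 library each. Means per cell were compared as log2 ratios after adding 0.1, for genes with a mean of at least 0.5 in any group compared. No p-value was computed. Genes named beside the 9 markers were the 25 highest and 15 lowest by the smaller of the libraries' 2 ratios with the same sign and a mean of at least 1 in the higher group, and the 12 highest and 12 lowest between libraries, with a mean of at least 1, above 0 in at least 25% of cells and still 2-fold apart without the highest cell, plus examples of each list. Col2a1, Mmp13, Comp, Prg4 and Il33 were singled out after their values were seen. Shares carry exact Clopper-Pearson 95% intervals, which cover counting error only. Doublets were called with Scrublet in scanpy 1.11.5, 48 and 16 cells in all. Stromal cells were clustered on 2000 variable genes, 30 components and 20 neighbours by Leiden at resolution 0.5 with igraph 0.11.9. The ratio code was tested on simulated data. Alternatives changed the gates, the pseudocount, the filter, the scaling and the cells. Promoters came from a RefSeq table, in which 7 of the 9 markers had an entry.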

Additional observations from a re-analysis of the deposited data

Results flagged for a closer look

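A set of 10 genes stood at least 2-fold higher in Hp/Lcn2 cells than in other stromal cells of 1 library and at least 2-fold lower in the other, on the log2 scale with 0.1 added. The difference between the libraries was not tested, since each group is 1 library. On the higher side after GLPG0187 were 5 genes: Slfn5 (1.20, against -1.92 after vehicle), Pi16 (1.49 and -1.55), Efemp1 (1.07 and -1.83), Ptx3 (1.38 and -1.05) and Ahsg (1.09 and -1.29). The other 5 were on the higher side after vehicle: Col11a1 (-1.07 after GLPG0187 and 3.61 after vehicle), Myoc (-2.34 and 1.98), Omd (-1.82 and 1.40), Hbegf (-1.0 and 1.40) and Ibsp (-1.35 and 1.19). Ibsp was listed at 0 in all 50 GLPG0187 cells, so its first value depends on the amount added.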

How the results depend on the processing

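The share of Hp/Lcn2 cells among stromal cells stayed lower in the GLPG0187 library under every gate and doublet setting tried, by -0.687 to -0.271 points, and by -0.136 among Y-only and -0.294 among Xist-only cells, with intervals for counting error only. Genes at least 2-fold higher in GLPG0187 than in vehicle Hp/Lcn2 cells numbered 299, and 193 with a sum of at least 5, 117 with 0.5 added, 178 with each cell scaled to 10000, 555 with no filter, 166 after centring and 468 in cluster 3 alone. Genes at least 2-fold lower numbered 119, and 65 with 0.5 added, 253 with no filter, 191 after centring and 229 in cluster 3. Against other stromal cells in both libraries, 132 genes were higher, and 74 with 0.5 added and 205 in cluster 3. Lower genes numbered 100, and 56 with a sum of at least 5, 39 with 0.5 added, 59 with other stromal cells weighted to the same clusters and 220 in cluster 3. The higher share of the genes counted moved from 56.9% to 40.6% without the highest cell of each group and to 69.6% with the weighting. Spp1 in the GLPG0187 library turned to -0.25 in cluster 3. Centring, weighting and the limit to cluster 3 were chosen after seeing the data. For the 9 markers alone, of 252 ratios under alternatives against other stromal cells, 202 moved by less than 1.5-fold, and of 117 between libraries, 110 did. Ratios for Xist-only cells were not run, with 1 and 3 cells. No paired analysis was possible because each group has 1 library. Small cell numbers limit precision: genes seen in a few cells rest on those cells, and raw depth is unknown.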
